A study of Mus musculus with 6 samples.

Results

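Transforming growth factor beta (TGF-beta) and the bone morphogenetic proteins (BMPs) are secreted ligands that bring together type II and type I receptor kinases on the cell surface. The activated type I receptors phosphorylate Smad proteins, Smad2 and Smad3 for TGF-beta and activins, and Smad1, Smad5 and Smad9 for BMPs, which enter the nucleus with Smad4. Secreted antagonists such as noggin and follistatin trap the ligands, Smad6 and Smad7 damp the pathway from inside the cell, and the Id genes are well known nuclear targets of BMP. In the developing brain BMPs favour astrocyte over neuron formation, and Id proteins hold precursors back from differentiating. The 45 genes described here were taken from a fixed list of such ligands, receptors, Smads, antagonists and targets. All 45 had a row with a single gene symbol, among 19938 genes so named on the array, and each had a single row.

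Expression was measured on Affymetrix arrays of primary brain cell cultures from OF1 mouse embryos at day 17 of gestation, differentiated in fetal calf serum into a mixture of neurons and glia. The 3 treated arrays came from cultures kept in serum-free medium without growth factors and given 10 nM 1,25-dihydroxyvitamin D3, the active hormone form of vitamin D (1,25D). The 3 control arrays came from cultures in the same medium with vehicle. The sources used here do not say how long the hormone was applied. Each group holds replicates numbered 1 to 3, called biological in the labels, which do not say whether they came from separate litters or dishes, so the p-values reflect the spread among these cultures, part of which may be technical.

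Values are log2 of the deposited intensity, and differences are 1,25D minus control on that scale, so a difference of 1 is a doubling of intensity. The median over all genes lay between 7.91 and 7.98 on the 6 arrays. Gfap, which encodes an astrocyte filament, was bright at 11.52 in 1,25D cultures and 11.61 in control cultures, and Map2, for a neuronal microtubule protein, was at 10.65 and 10.94. The neuronal tubulin gene Tubb3 was dimmer, at 7.36 and 7.41, and the microglial gene Aif1 dim, at 6.15 and 6.03. These words describe brightness on the array only. Probes differ in brightness, so they do not rank the genes or the cell types by amount. Bmp5 was the one member below the 25th percentile of genes by mean intensity, where differences are compressed. Tgfb1 was the one member with the same value to the last digit on both replicate 1 arrays, so its difference in that pair is 0 by the file. Such identical values were found for 1094 genes (5.49%) in replicate 1, but for only 2 genes in replicate 2 and 5 in replicate 3. The labels give no reason for this.

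In the 1,25D cultures 0 of the 45 genes rose and 0 fell (limma, adjusted p over all 19938 genes under 0.05), and the same count of 0 was found with the replicate number as a block. Among all genes the share that passed was 0.0251%, and 0.0903% when blocked, so few called genes were there to be found in any list of this length. The lowest adjusted p of a member was 1.00, or 0.33 when blocked. At an unadjusted p under 0.05 there were 2 members (4.44%), against 1.48% of all genes, and with the block 3 members (6.67%), against 5.78%. In these bulk arrays a change in the number of cells of a type and a change in RNA per cell cannot be told apart.

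The members' differences spread evenly around 0. Of the 45, 23 lay above 0 and 22 below, with a median of 0.00, against a median of 0.01 over all genes. The absolute difference was under 0.25 for 39 members, and its median was 0.07, as it was over all genes. The 95% interval of the difference lay within 0.5 of 0, a change of under 1.41-fold either way, for 29 members without the block and for 37 with it. The groups did not overlap for 5 members (11.1%), where 4.15% of all genes had groups apart. They were higher for Fst and Gdf10 (2.63% of all genes) and lower for Tgfb3, Tgfbr2 and Chrd (1.52%). With 1 array left out, and so fewer arrays to overlap, that count was between 7 and 10. All 3 pairs had the same sign for 28.9% of members, against 25.8% of all genes, with 8 members higher in every pair (14.8% of all genes) and 5 lower (11%). Only Fst and Tgfb3 had a mean difference of more than 0.5 in size, a share of 4.44% against 0.692% of all genes.

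**Figure D1:**
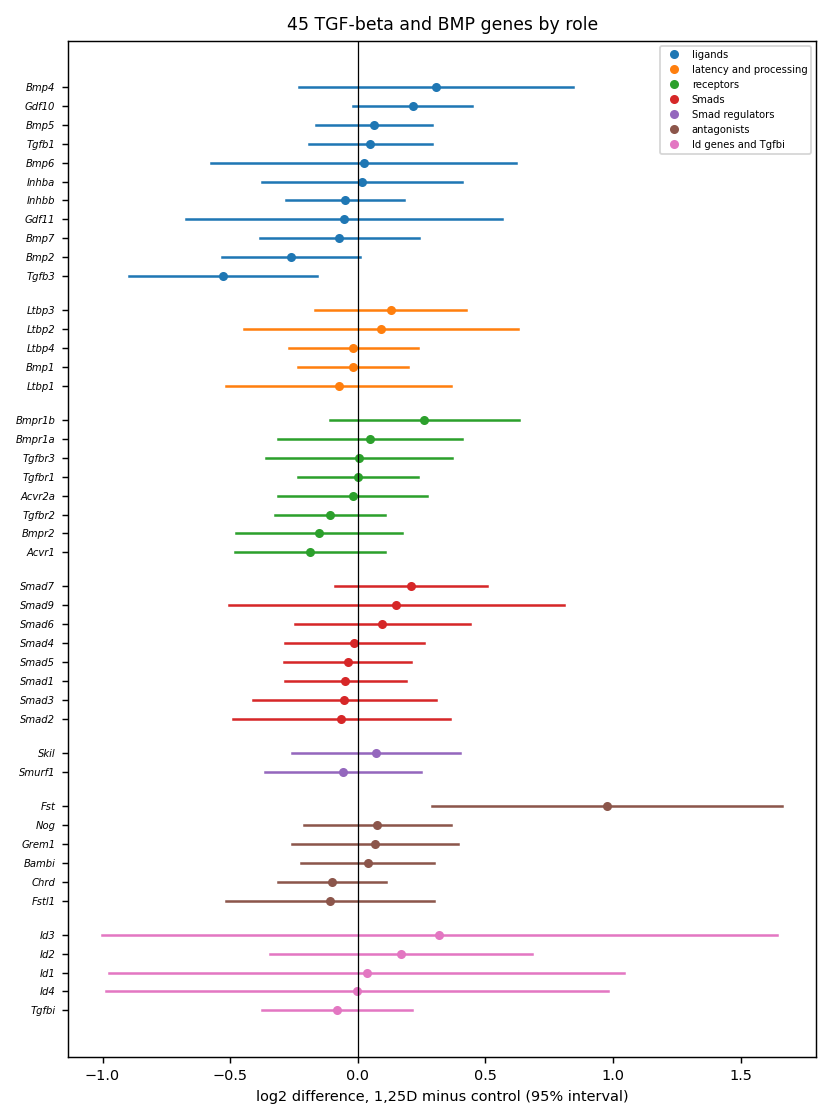
Log2 difference of each of the 45 genes, 1,25D minus control (horizontal axis), with its 95% interval from the fit without the replicate block, grouped by role (colour). The intervals of Fst (0.98) and Tgfb3 (-0.53) lie to one side of 0, those of Id1, Id3 and Id4 are about 2 log2 units or more wide, and no gene passed after adjustment over all genes.

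Among the 11 ligand genes, 6 lay above 0 and 5 below, and none passed the test. Tgfb3, which encodes the third TGF-beta isoform, had log2 intensities of 9.88, 10.28 and 10.24 on 1,25D arrays 1 to 3, against 10.49, 10.57 and 10.93 on control arrays 1 to 3. Every 1,25D array lay below every control array, and the pair differences were -0.61, -0.28 and -0.69. The mean was 10.14 ± 0.22 in 1,25D cultures and 10.66 ± 0.24 in control cultures (SD, n = 3 each). The difference was -0.53 (95% interval -0.90 to -0.16), a ratio of 0.694, and limma gave an adjusted p of 1.00, or 0.33 when blocked. Over all omissions of an array or a pair it stayed between -0.65 and -0.39.

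Tgfb1, the isoform most studied in injury and inflammation, had 7.01, 7.15 and 6.92 on the 1,25D arrays against 7.01, 7.04 and 6.88 on the control arrays. The groups overlapped, and the difference was 0.05 (95% interval -0.19 to 0.29), turning to -0.01 without 1,25D replicate 2.

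Bmp2 and Bmp4 form the closely related pair of classical BMP ligands. Bmp2 had 7.0, 7.31 and 7.05 on the 1,25D arrays, against 7.43, 7.28 and 7.44 on the control arrays. Replicates 1 and 3 were lower with 1,25D while replicate 2 was level, and the difference was -0.26 (95% interval -0.53 to 0.01). Bmp4 had 9.19, 9.28 and 9.30 on the 1,25D arrays, against 8.36, 9.17 and 9.31 on the control arrays. Its difference of 0.31 (95% interval -0.23 to 0.84) came mainly from control replicate 1, the one low array, and was 0.01 without it.

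Gdf10, also called BMP-3b, had 7.46, 7.58 and 7.37 in 1,25D cultures against 7.26, 7.18 and 7.33 in control cultures. All 1,25D arrays lay above all control arrays, though by 0.05 at the nearest point, and the difference was 0.22 (95% interval -0.02 to 0.45). Bmp7, a ligand needed for forebrain and eye formation, had 8.69, 8.81 and 8.68 against 9.01, 8.85 and 8.54 in controls, with a difference of -0.07 that changed sign when replicate 1 was left out (0.05 with the block). The other ligands were closer to 0. Bmp5 differed by 0.06, Bmp6 by 0.02 and Gdf11, a relative of myostatin, by -0.05. The activin subunit genes Inhba and Inhbb differed by 0.02 and -0.05. Bmp6 and Gdf11 varied between arrays more than between groups, with SDs of 0.52 and 0.39 among 1,25D arrays, against 0.27 and 0.47 among controls.

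**Figure D2:**
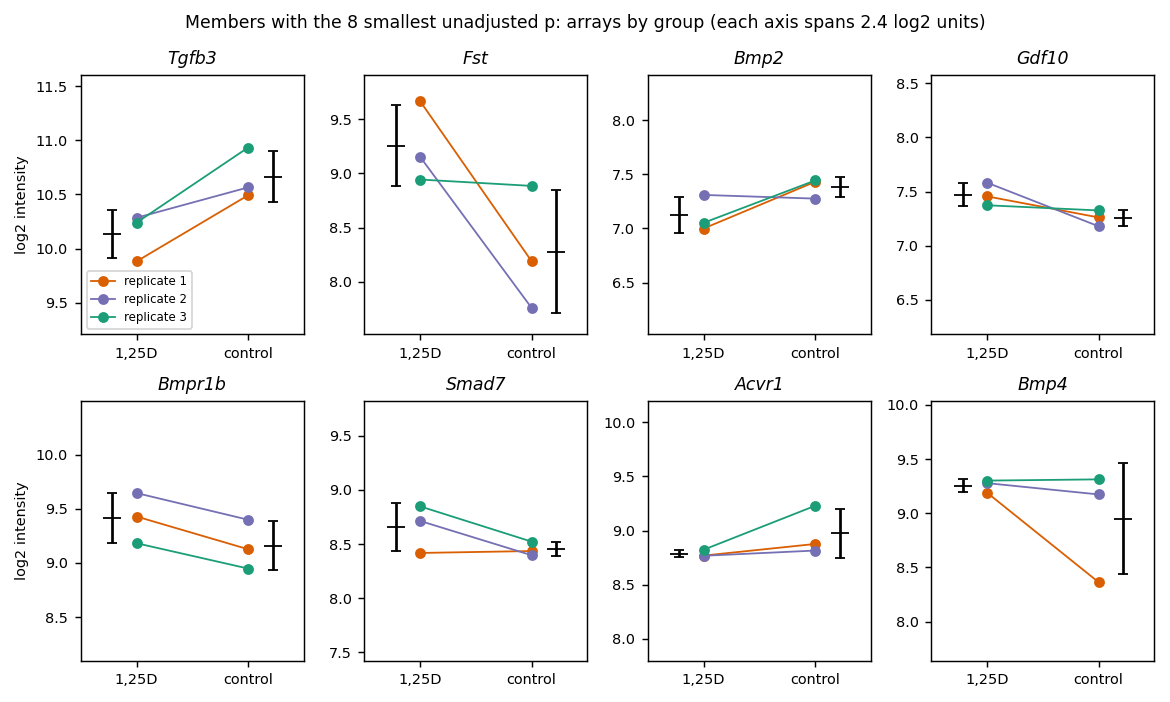
Log2 intensity (vertical axis) on each array of the 8 members with the smallest unadjusted p, 1,25D at the left and control at the right of each panel, lines joining arrays of equal replicate number and black bars giving mean ± SD (n = 3). Tgfb3 lay lower on every 1,25D array, Fst lay higher in replicates 1 and 2 and level in replicate 3, and the Bmp4 difference rested on control replicate 1.

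The largest difference of all 45 genes was among the antagonists. Fst encodes follistatin, a secreted protein that binds activins nearly irreversibly and some BMPs more weakly. It had 9.67, 9.15 and 8.94 on 1,25D arrays 1 to 3, against 8.19, 7.76 and 8.88 on control arrays 1 to 3. Every 1,25D array was above every control array, but control replicate 3 reached within 0.06 of its 1,25D counterpart. The pair ratios were 2.79-fold, 2.63-fold and 1.04-fold for replicates 1, 2 and 3. The mean was 9.25 ± 0.37 in 1,25D cultures and 8.28 ± 0.57 in control cultures (SD, n = 3 each), a 1.97-fold higher mean. The difference was 0.98 (95% interval 0.29 to 1.66), and limma gave an adjusted p of 1.00, or 0.64 when blocked. Without replicate 3 and with the block, a fit of 2 pairs, the difference was 1.44 and Fst passed (limma, adjusted p = 0.0165), the single setting in which any member did. Without replicate 1 it was 0.73 with the block.

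The activins that follistatin binds had smaller differences than Fst. Inhba had pair differences of 0.27, 0.32 and -0.54 and Inhbb of -0.18, 0.03 and 0.00, so the activin subunits showed no shared direction over the pairs. Of the BMP-binding antagonists, Nog (noggin) differed by 0.08, Grem1 (gremlin 1) by 0.07 and Chrd (chordin) by -0.10. Chrd had 7.61, 7.67 and 7.56 in 1,25D cultures, against 7.68, 7.69 and 7.78 in controls, so the groups were apart by 0.01 only. Bambi, a receptor-like protein without a kinase domain that blocks signalling, differed by 0.04, and Fstl1, a secreted glycoprotein related to follistatin, by -0.11. The 5 antagonists other than Fst thus lay between -0.11 and 0.08.

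The receptor genes stayed close to control levels, with 4 of 8 above 0, 4 below and a median of -0.01. Bmpr1b, a type I receptor for BMPs, had 9.43, 9.64 and 9.18 in 1,25D cultures, against 9.13, 9.40 and 8.95 in controls. The groups overlapped and levels differed between replicate numbers, while the pair differences were alike at 0.30, 0.25 and 0.23. Its difference was 0.26, with a 95% interval of -0.11 to 0.63 without the block and 0.08 to 0.44 with it, and a blocked adjusted p of 0.68 in limma.

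Acvr1, a type I receptor that also carries BMP signals, had 8.77, 8.77 and 8.82 in 1,25D cultures, against 8.88, 8.82 and 9.23 in controls, a difference of -0.19 (95% interval -0.48 to 0.11). Tgfbr2, the type II receptor that binds TGF-beta first, had 9.20, 9.26 and 9.20, against 9.43, 9.28 and 9.28 in controls. All 1,25D arrays lay below all controls, by 0.02 at the nearest point, and the difference was -0.11 (95% interval -0.33 to 0.10). Its partner kinase Tgfbr1 differed by 0.00 (95% interval -0.23 to 0.23) and the co-receptor Tgfbr3, betaglycan, by 0.00. Bmpr1a, the other BMP type I receptor, differed by 0.05, the BMP type II receptor Bmpr2 by -0.15, and the activin type II receptor Acvr2a by -0.02.

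The Smad genes likewise showed no called change, with 3 of 8 above 0 and a median of -0.03. The receptor-activated Smads of the TGF-beta branch, Smad2 and Smad3, differed by -0.06 and -0.05. Those of the BMP branch, Smad1, Smad5 and Smad9, differed by -0.05, -0.04 and 0.15, and the common partner Smad4 by -0.01. The 95% interval was -0.51 to 0.81 for Smad9 and -0.28 to 0.26 for Smad4.

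The inhibitory Smads had small positive means. Smad7, which blocks TGF-beta receptors, had 8.42, 8.71 and 8.85 in 1,25D cultures, against 8.44, 8.40 and 8.52 in controls, a difference of 0.21 (95% interval -0.09 to 0.50) that was absent from pair 1. Smad6, which acts mainly on the BMP branch, differed by 0.10. Skil, a nuclear repressor of Smads also called SnoN, differed by 0.07, and Smurf1, a ubiquitin ligase that degrades Smads and receptors, by -0.06.

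Genes for storage and processing of the ligands differed little from control. The genes of the latent TGF-beta binding proteins differed by -0.08 for Ltbp1, 0.09 for Ltbp2, 0.13 for Ltbp3 and -0.02 for Ltbp4. Some of these proteins, though not all, tether inactive TGF-beta to the matrix. Bmp1 is, despite its name, a metalloprotease that cleaves procollagen and chordin, and it differed by -0.02 (95% interval -0.24 to 0.20). Ltbp1 and Ltbp2 varied most between the 1,25D arrays, with SDs of 0.37 and 0.41, against 0.18 and 0.31 among controls.

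**Figure D3:**
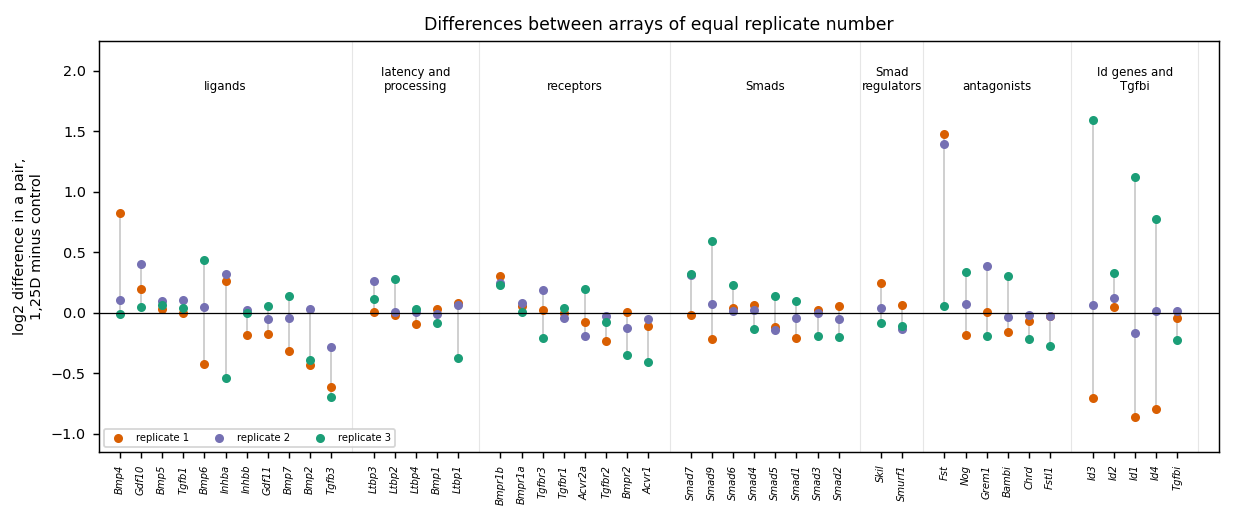
Log2 difference between the 1,25D and the control array of equal replicate number (vertical axis) for each of the 45 genes, by role, with 1 point for each of the 3 pairs and a grey line over their span. Most genes cluster near 0 in every pair, while Id1, Id3 and Id4 lie below 0 in replicate 1 and above 0 in replicate 3, and Fst lies near 0 in replicate 3 only.

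Id3, Id1 and Id4 differed more within a group than any other of the 45 genes, with standard errors of the difference of 0.57, 0.43 and 0.42, against a median of 0.14 over the members. The Id genes encode helix-loop-helix proteins without a DNA-binding region that block neurogenic transcription factors, and they respond to BMP within a short time. Id3 had 8.66, 10.44 and 10.01 on 1,25D arrays 1 to 3, against 9.36, 10.38 and 8.41 on control arrays 1 to 3. Id1 had 8.55, 9.93 and 9.99 on the 1,25D arrays, against 9.41, 10.10 and 8.86 on the control arrays. Id4 had 9.91, 11.37 and 10.79, against 10.70, 11.36 and 10.01 in controls. For all 3 genes the low arrays were 1,25D replicate 1 and control replicate 3, replicate 2 was high in both groups, and the groups overlapped widely.

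By pair, Id3 differed by -0.70, 0.06 and 1.60, Id1 by -0.86, -0.17 and 1.13, and Id4 by -0.80, 0.01 and 0.77 in replicates 1, 2 and 3. The treated culture was thus lower in 1 pair, near level in the next and higher in the last. The mean differences were 0.32 for Id3 (95% interval -1.0 to 1.64), 0.04 for Id1 (-0.97 to 1.04) and 0.00 for Id4 (-0.99 to 0.98). Each interval reached about 1 log2 unit or more to both sides of 0. Leaving out an array or a pair turned the direction, with values from -0.32 to 0.84 for Id3, from -0.51 to 0.50 for Id1 and from -0.39 to 0.39 for Id4. The range over the 6 arrays was 2.03 for Id3, 1.54 for Id1 and 1.46 for Id4, and only 0.311%, 0.958% and 1.24% of all genes had a range as large.

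Id2 varied less, with a range of 0.76 over the 6 arrays. It had 11.97, 12.68 and 12.38 in 1,25D cultures, against 11.92, 12.56 and 12.04 in controls, with pair differences of 0.05, 0.13 and 0.33. The groups overlapped, and the difference was 0.17, with a 95% interval of -0.35 to 0.68 without the block and -0.04 to 0.38 with it. Tgfbi, a matrix protein named for its induction by TGF-beta, differed by -0.08 and varied little, with pair differences of -0.04, 0.02 and -0.22.

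**Figure D4:**
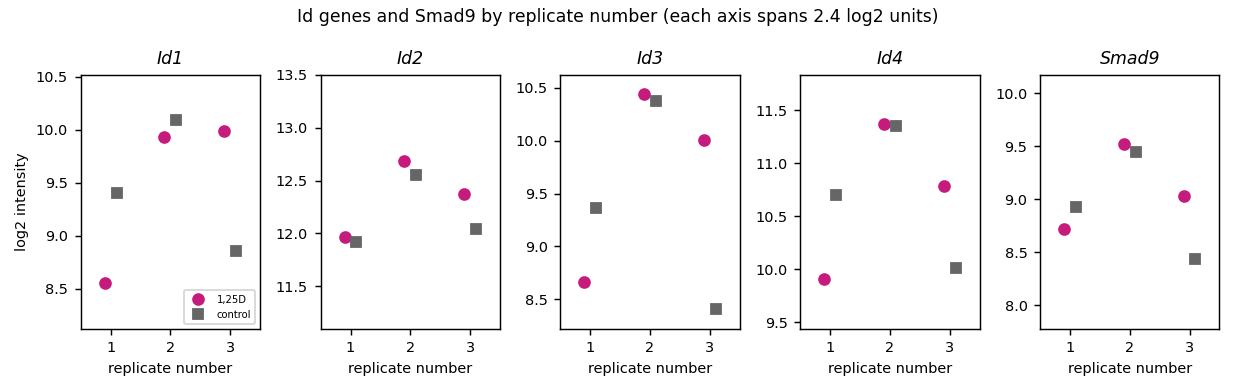
Log2 intensity (vertical axis) of Id1, Id2, Id3, Id4 and Smad9 on each array by replicate number (horizontal axis), 1,25D as circles and control as squares. Id1, Id3 and Id4 were low on 1,25D replicate 1 and control replicate 3, and both arrays of replicate 2 were high and close together.

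Other members with a pair 1 value below 0 and a pair 3 value above 0 were picked out after the values were seen. Smad9, a BMP-branch Smad and itself a BMP target in other cells, had 8.71, 9.52 and 9.03 in 1,25D cultures, against 8.93, 9.45 and 8.44 in controls, and pair differences of -0.21, 0.07 and 0.60. Bmp6 had pair differences of -0.42, 0.05 and 0.44. Nog and Bambi, which BMP also induces in other cells, had -0.18, 0.07 and 0.34, and -0.16, -0.03 and 0.31. Bmp7, Gdf11, Ltbp2, Ltbp4, Acvr2a, Smad1 and Smad5 had the same order of signs, so it was not confined to BMP targets. Their pair 1 values ran from -0.32 to -0.02 and their pair 3 values from 0.03 to 0.28. In all, 15 of 45 members (33.3%) had this order of signs, against 24.4% of all genes, and 12 (26.7%) had the opposite order, against 28.0%. Of the inhibitory Smads, Smad7 had it by a narrow margin, with pair differences of -0.02, 0.32 and 0.33, and Smad6 did not, with 0.04, 0.02 and 0.23.

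Some single cell type markers had the same 2 lowest arrays as Id1, Id3 and Id4, namely 1,25D replicate 1 and control replicate 3. These were 6 of 53 markers (11.3%), against 6.47% of all genes, and were picked out after the values were seen: Kdr, Cnp, Nes, Pax6, Gja1 and Slc1a3. Nes, the intermediate filament protein nestin of neural progenitors, had log2 intensities of 10.02, 11.05 and 10.48 in 1,25D cultures, against 10.85, 11.09 and 9.86 in controls. Kdr, a VEGF receptor of endothelial cells, had linear intensities of 803, 1247 and 1057 in 1,25D cultures, against 1571, 1254 and 753 in controls. The other 4 endothelial markers did not share its order, and their summed intensity was 613, 633 and 563 in 1,25D cultures, against 623, 568 and 576 in controls. Cnp, an enzyme of oligodendrocyte myelin, had 1824, 2770 and 2199 in 1,25D cultures, against 2401, 3081 and 1791 in controls. The other 5 oligodendrocyte lineage markers summed to 1106, 1219 and 1501, against 1103, 1369 and 1338 in controls. The 7 astrocyte markers summed to 27769, 37560 and 28453 in 1,25D cultures, against 33834, 37535 and 28633 in controls. The 2 lowest arrays of this full sum were 1,25D replicates 1 and 3, with control replicate 3 close above. Without Aldoc, the brightest, the other 6 summed to 19662, 29314 and 20186, against 25557, 29491 and 18882 in controls. Only in this smaller sum were 1,25D replicate 1 and control replicate 3 the 2 lowest arrays, with 1,25D replicate 3 close above. Of the 7 astrocyte markers, 2 had that order singly, Gja1 and Slc1a3. The 6 neural progenitor markers summed to 28061 to 33706, against 31247 to 34139. Without Vim, the brightest, the other 5 summed to 15360, 18792 and 20074, against 17694, 19757 and 17796 in controls, a different order. None of these markers was called, and their part in the Id values was not tested.

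For Fst and Tgfb3 the lists of mesenchymal cells are given beside the values. The 7 pericyte and smooth muscle markers summed to 1458 to 1755 in 1,25D cultures, against 1321 to 1524 in controls, and the 8 meningeal fibroblast markers to 1782 to 2225, against 1630 to 1868. Each of these sums rested on its brightest gene, Pdgfrb (a difference of 0.48) and Col1a1 (0.42), neither of which was called. Without Pdgfrb the other 6 pericyte and smooth muscle markers summed to 925 to 1022 in 1,25D cultures, against 900 to 1083 in controls. Without Col1a1 the other 7 fibroblast markers summed to 1035 to 1201, against 1114 to 1170 in controls. The 8 neuron markers summed to 2727 to 4973, against 3457 to 4967, and the 6 microglia markers to 742 to 849, against 727 to 787. Of the 8 neuron markers 7 lay below 0, with a median of -0.06, and all 6 microglia markers lay above 0, with a median of 0.07. All 7 astrocyte markers lay below 0, with a median of -0.08, as did 5 of 6 neural progenitor markers, with a median of -0.03. Above 0 lay 5 of 7 pericyte and smooth muscle, 6 of 8 fibroblast, 3 of 6 oligodendrocyte lineage and 2 of 5 endothelial markers. Over all genes 53% lay above 0. The neuron marker Rbfox3 differed by -0.34, with every 1,25D array below every control array, as for 1.52% of all genes. It was not called. No marker was listed at 0, as the array summary gives every gene a positive value, and the part of these cells in the Fst and Tgfb3 values was not tested.

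The sequences before the start sites of Id genes are shown because these genes are the pathway's standard nuclear readout and include the members with the widest spread within a group. Windows of 250 bases upstream of the RefSeq start (build GRCm38.p6), printed 5′ to 3′ on the gene's strand, were available for 3 of the Id genes, which were chosen after their values were seen. Capitals mark GGCGCC, the core of a GC-rich element bound by BMP-activated Smads, and CAGAC or its reverse complement GTCTG, a short Smad binding motif. The windows are chr12:25096093-25096342 (minus strand) for Id2, chr4:136143572-136143821 (plus strand) for Id3 and chr13:48260866-48261115 (plus strand) for Id4.
Id2: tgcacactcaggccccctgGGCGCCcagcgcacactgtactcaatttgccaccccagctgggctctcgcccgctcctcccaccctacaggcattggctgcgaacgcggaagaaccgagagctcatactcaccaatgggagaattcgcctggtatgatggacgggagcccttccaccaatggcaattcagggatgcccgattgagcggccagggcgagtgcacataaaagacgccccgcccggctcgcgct
Id3: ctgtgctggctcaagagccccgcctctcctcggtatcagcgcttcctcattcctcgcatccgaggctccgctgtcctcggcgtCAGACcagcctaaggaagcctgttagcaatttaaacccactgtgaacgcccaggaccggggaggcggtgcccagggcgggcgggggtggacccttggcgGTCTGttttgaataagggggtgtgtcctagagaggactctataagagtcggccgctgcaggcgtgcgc
Id4: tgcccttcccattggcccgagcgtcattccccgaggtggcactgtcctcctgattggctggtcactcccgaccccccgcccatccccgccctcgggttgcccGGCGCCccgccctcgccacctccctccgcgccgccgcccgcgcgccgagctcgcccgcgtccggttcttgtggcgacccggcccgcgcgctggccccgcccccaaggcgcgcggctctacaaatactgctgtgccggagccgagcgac

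Id2 and Id4 each held 1 GGCGCC and no CAGAC, and Id3 held 2 CAGAC sites on either strand and no GGCGCC. Among 32851 such windows of the mouse genome, 9.59% held GGCGCC and 42.2% held CAGAC on either strand. Windows were found for 32 of the 45 members, 40 windows in all, of which 30.0% held GGCGCC and 42.5% held CAGAC. The member windows were richer in G and C, with a median of 66.6% against 52.4% over all windows. A direct repeat of AGGTCA or of GGTTCA with 3 bases between, the layout of a vitamin D response element, was found in 0 of the 40 member windows and in 0.0122% of all windows. Id3 and Id4 thus held different motifs in this stretch, and any link of motifs to array values was not tested.

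Other genes of the pathway were taken from wider lists of ligands, receptors, regulators and targets, 92 of which were measured. None rose or fell in either fit, with a lowest limma adjusted p of 1.00, or 0.176 when blocked, and the median difference was 0.03. At an unadjusted p under 0.05 there were 3 without the block (3.26%) and 10 with it (10.9%), against the 1.48% and 5.78% of all genes. Of the genes below, the 4 with the smallest unadjusted p are given as values.

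Tgm2, transglutaminase 2, a crosslinking enzyme that helps activate latent TGF-beta and is also induced by it in other cells, had 9.77, 9.30 and 9.72 in 1,25D cultures, against 9.15, 8.64 and 8.53 in controls. The groups did not overlap, and the difference was 0.82 (95% interval 0.37 to 1.27), with a blocked adjusted p of 0.176 in limma. Atoh8, a transcription factor gene induced by BMP in liver and endothelium, had 9.17, 9.55 and 9.51, against 8.90, 9.01 and 8.79 in controls, a difference of 0.51 (95% interval 0.21 to 0.81) without overlap. It lay above control in all 3 pairs, by 0.27, 0.54 and 0.72. Id2 did so too, by smaller amounts, while Id1, Id3 and Id4 did not.

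Among TGF-beta targets of mesenchymal cells, Postn, the matrix protein periostin, had 9.01, 9.82 and 9.11 in 1,25D cultures, against 9.83, 10.12 and 9.79 in controls. Its difference was -0.60 (95% interval -1.1 to -0.10), below control in every pair. Col1a1, the alpha 1 chain of type I collagen, had 10.05, 9.65 and 9.55, against 9.54, 9.01 and 9.45 in controls, a difference of 0.42 (95% interval -0.01 to 0.84). Ccn2, connective tissue growth factor and a classical TGF-beta target, had 11.91, 12.64 and 12.50, against 11.81, 12.65 and 12.74 in controls, a difference of -0.05 (95% interval -0.71 to 0.60). The targets of TGF-beta in other cells thus lay on both sides of 0, and over 14 of them the median was -0.07. With the block, 5 of the 14 (35.7%) had an unadjusted limma p under 0.05, 2 higher and 3 lower, against 5.78% of all genes. The groups did not overlap for 28.6% of the 14, against 4.15% of all genes. None was called, and the list was chosen with earlier results of these data known. The 6 measured genes of the wider list of BMP targets had pair medians of 0.12, 0.17 and 0.16. All 6 had a mean difference above 0, as 53% of all genes did. Among them Dlx5 lay below control in pair 1 and above it in pair 3, at -0.12 and 0.20, and Msx2 had the opposite order, at 0.08 and -0.09.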

How the data were processed

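The deposited intensity values of 6 arrays were produced by the authors using RMA and Affymetrix Expression Console, which the submitters' processing notes name without versions or filters. RMA corrects background, normalises arrays to each other and summarises probes, gives no detection call and compresses differences of dim genes. The values are on a linear scale, from 8.05 to 22019, so log2 was taken. The precision is limited by the number of arrays.

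Of 35556 rows, GEO's platform annotation paired 21789 with 1 gene symbol, for 19938 genes. The row with the highest mean was used for the 999 genes with several rows. The comparison of 1,25D minus control used limma 3.58.1 in R 4.3.3 (lmFit, eBayes without a trend), with Benjamini-Hochberg adjustment over all genes and a threshold of 0.05, and was tested on simulated data. An exact permutation test of 3 arrays against 3 cannot give a two-sided p below 0.1. The members, lists and tests were chosen with earlier results of these data known. Array values are given for the 8 members with the smallest unadjusted p, for a fixed set (Id1, Id2, Id3, Id4, Tgfb1, Bmp4, Bmp7 and Tgfbr2) and for the 4 wider pathway genes with the smallest p and Ccn2. Other genes with array values were chosen after their values were seen. Wider pathway genes without a row of 1 symbol are not analysed here. Promoter windows are from RefSeq.

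Deviations from the group means correlated at 0.51, 0.65 and 0.46 between arrays numbered 1, 2 and 3, and equal numbers were therefore handled as pairs, on the data alone, since the labels state no pairing. The fit with the replicate block stands beside the other where it changes a count or a call. Alternatives were normalisation, a filter on dim genes, averaging of rows, an intensity trend and omission of arrays or pairs.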

Additional observations from a re-analysis of the deposited data

How the results depend on the processing

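No member passed without the replicate block in any setting, and with the block Fst alone passed, without replicate 3, so the count of members called was between 0 and 1 over the omissions of arrays or pairs. The count over all genes was 5 as reported and 18 with the replicate block, which pairs the arrays by number. It was 3 after quantile normalisation, between 0 and 2 over the omissions of 1 array, 40, 3 and 45 with the block and without pair 1, 2 or 3, and with the block and all pairs 10 after quantile normalisation, 16 after median centring, 18 with an intensity trend and 22 without the genes of identical replicate 1 values. The blocked repeats with another normalisation or trend and the omission of identical values were added once the data had been seen. The median over the members lay between -0.03 and 0.03 over the omissions, and the count of members without overlap between 7 and 10. The direction turned in some omissions for Bmp7 (-0.20 to 0.05), Id1 (-0.26 to 0.50 over arrays, from -0.51 over pairs), Id2 (0.00 to 0.36), Id3 (-0.17 to 0.84, from -0.32 over pairs), Id4 (-0.34 to 0.39, from -0.39 over pairs) and Tgfb1 (-0.01 to 0.10), and for Id4 also after quantile normalisation, without and with the block (0.00 each). The cause of these turns was not tested. The replicate block changed no call of a member over all 3 pairs. Each omission of a pair leaves 2 pairs, whose adjusted p rests on the variance shared across genes. Dim genes such as Bmp5 give compressed differences.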
